A study of Mus musculus with 4 samples.

Results

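The matrix metalloproteinase (MMP), ADAM and ADAMTS genes and the genes of their tissue inhibitors (TIMPs) were followed across 4 populations of mouse bone marrow-derived cells. Members were all genes on the array named Mmp, Adam, Adamts or Timp with a number. This gave 73 of the 19707 named genes, comprising 21 MMP, 30 ADAM, 18 ADAMTS and 4 TIMP genes, with 124 probes between them. Where a member had several probes, as 37 did, its brightest one on average is used.

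All cells came from BALB/C mice, whose age and number are not given in the sources used here, and each population was measured on 1 one-colour array. The antibody-treated sDCs were formed like the sDCs, with a neutralizing antibody against IL-10 given at 10 µg/mL every 2 days. The sDCs grew from progenitors depleted of lineage-positive cells on a monolayer of Sca-1+CD117-Lin- mesenchymal stem cells (MSCs). They met lipopolysaccharide (LPS), a bacterial product, on day 4 and were taken on day 9. The maDCs were immature cells kept in 10 ng/mL LPS for a further 4 to 5 days. GM-CSF at 10 ng/mL, IL-4 at 5 ng/mL and CD11c beads on day 4 are listed for them, as for the imDCs. None of these is listed for the sDCs, so in comparisons with sDCs they cannot be told apart from the population. The imDCs, which met no LPS, were the loosely attached clusters of a day 4 culture given IL-4 at 5 ng/mL beside GM-CSF at 10 ng/mL, and were bound to beads for CD11c. How sDCs were parted from the stromal layer and at which LPS dose they were treated are not given in the sources used here. Since each group had 1 array, there is no spread between cultures, no test and no p-value, and a difference of at least 2-fold (1 on the log2 scale) is used as a size and not as a call of significance.

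MMPs are zinc-dependent proteases that cut collagens, proteoglycans and other matrix proteins. Most are secreted as inactive precursors, and several are released at high levels by activated fibroblasts and macrophages. ADAMs are membrane-bound relatives, some of which release the outer parts of cytokines and receptors from the cell surface. ADAMTS enzymes are secreted and act on proteoglycans and procollagens. TIMPs bind the active site of MMPs, and TIMP-3 also inhibits ADAM17 and several ADAMTS enzymes.

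Every level below is the log2 intensity minus the 75th percentile of its array, so that 0 marks the signal below which 75% of the probes lay. Spots well above background made up 61.2% to 69.7% of each array, and no spot was saturated (0 on each). Probes spotted repeatedly differed between spots by a median SD of 0.047 to 0.059 log2 units, which covers spotting and scanning only. All arrays but that of imDCs shared a slide, so in any comparison with imDCs the slide and the population cannot be told apart. The 12 dendritic cell markers checked, Itgax and MHC class II genes among them, averaged -2.66 in antibody-treated sDCs, -2.76 in sDCs, 2.29 in maDCs and 2.08 in imDCs. All 12 were at least 2-fold lower in sDCs than in imDCs. Irf4 and Cd209a were not well above background on either sDC array, and Cd209a was not on the maDC array either. Stromal markers averaged 2.15 in antibody-treated sDCs, 2.96 in sDCs, -2.26 in maDCs and -3.99 in imDCs, with 12 of 12 well above background on both sDC arrays and 9 on each of the others. Macrophage markers averaged 2.86 in antibody-treated sDCs, 3.24 in sDCs, -1.07 in maDCs and -1.98 in imDCs. Mast cell or basophil markers averaged -4.80 in antibody-treated sDCs, -5.13 in sDCs, 0.14 in maDCs and -2.72 in imDCs. In maDCs 8 of 8 with a value were at least 2-fold higher than in imDCs. Eosinophil markers averaged -6.09 in antibody-treated sDCs, -6.59 in sDCs, -1.62 in maDCs and 1.18 in imDCs. These cell type signals differ between the same arrays that the members are compared on, and their part in the values below was not tested. Fewer cells of a type and less RNA per cell cannot be told apart in such samples.

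Of the 73 members, 40 were well above background on all 4 arrays, 15 on 1 to 3 of them and 18 on none. In the comparison of sDCs with imDCs, 31 of the 49 members with a value were at least 2-fold higher in sDCs (63.3%), against 25.7% of all genes with a value, and 5 were lower (10.2%, against 15.9% of all genes). In maDCs against imDCs, 21 of 43 members were higher (48.8%, against 21.9% of all genes) and 2 were lower (4.65%, against 10.5%). In sDCs against maDCs, 13 of 47 were higher (27.7%, against 14.2%) and 10 lower (21.3%, against 16.9%). The members' median difference was 1.47 in sDCs minus imDCs (0.22 over all genes), 0.97 in maDCs minus imDCs (0.20) and 0.31 in sDCs minus maDCs (0.02). These comparisons hold 3 to 6 bounds each, cases in which 1 of the arrays was too dim to give more than a limit. The lowest signal well above background also differed, at -5.68 in antibody-treated sDCs, -5.96 in sDCs, -5.36 in maDCs and -7.21 in imDCs. Dim genes could thus be read to a lower level on the imDC array, which can widen their differences from imDCs. The part of this in the members' counts and folds against imDCs was not tested. Each pair of these comparisons has an array in common, so their counts are not independent.

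**Figure D1:**
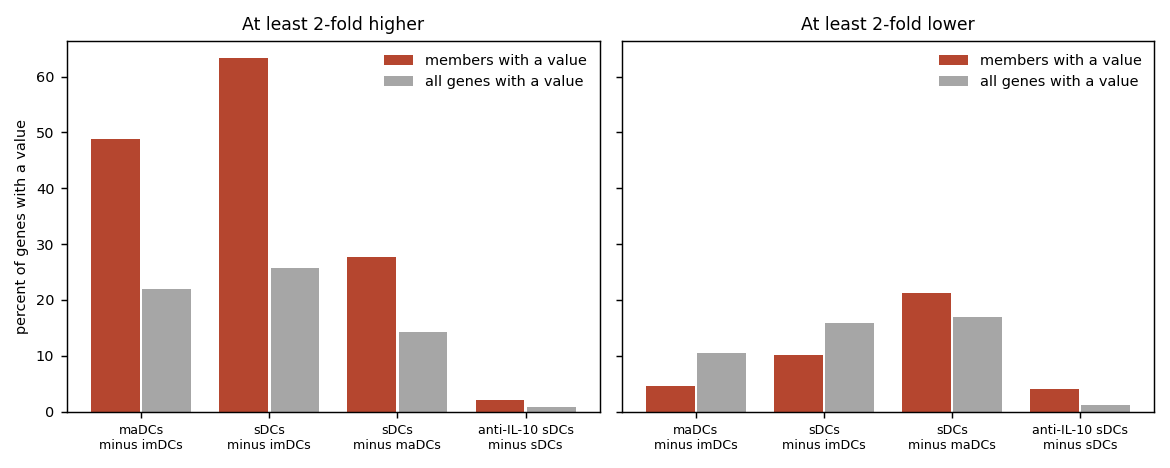
Percent of genes with a value that were at least 2-fold higher (left) or lower (right) in each of the 4 comparisons, for members (red) and for all named genes (grey). Members were above the grey bar for higher genes in the first 3 comparisons, by the widest margin in sDCs minus imDCs (63.3% against 25.7%). They were below it for lower genes in both comparisons with imDCs. In the antibody comparison the red bar for higher genes is 1 gene of 49, Adam6, which has only a bound. The bar for lower genes, 2 members, was also above the grey one there (4.08% against 1.22%).

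The inhibitors differed between the populations one by one. Timp2, whose protein also takes part in the activation of pro-MMP-2 by MMP-14, stood at 5.01 in antibody-treated sDCs and 5.43 in sDCs, against -0.44 in maDCs and 0.58 in imDCs (probe at mm9 chr11:118163146-118163205). Both stroma-formed arrays lay far above the others, and the difference of sDCs was 5.87 from maDCs (58.5-fold) and 4.85 from imDCs (28.8-fold). Among members measured on both arrays it had the largest difference towards sDCs in the comparison with maDCs, while Adamts2 and Adam12 have only lower bounds there. In maDCs Timp2 was 2.03-fold lower than in imDCs, a difference of -1.02 that fell short of 2-fold under the normexp background correction.

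Timp1, an inhibitor induced in many cells by inflammatory signals, followed another order, at 2.50 in antibody-treated sDCs, 3.66 in sDCs, 4.49 in maDCs and -0.14 in imDCs. All 3 LPS-exposed arrays were above the imDC array, by 4.63 in maDCs (24.8-fold) and 3.80 in sDCs (13.9-fold). Another Timp1 probe gave 4.64 and 3.45. Timp3, which is bound to the matrix after secretion, was at 0.81 in antibody-treated sDCs, 1.80 in sDCs, 1.04 in maDCs and -0.76 in imDCs. It was 5.89-fold higher in sDCs and 3.48-fold higher in maDCs than in imDCs. Timp4, an inhibitor best known from heart, lay at -5.30 in antibody-treated sDCs, -5.25 in sDCs, -5.43 in maDCs and -5.84 in imDCs, close to background throughout and well above it on the sDC and imDC arrays only.

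**Figure D2:**
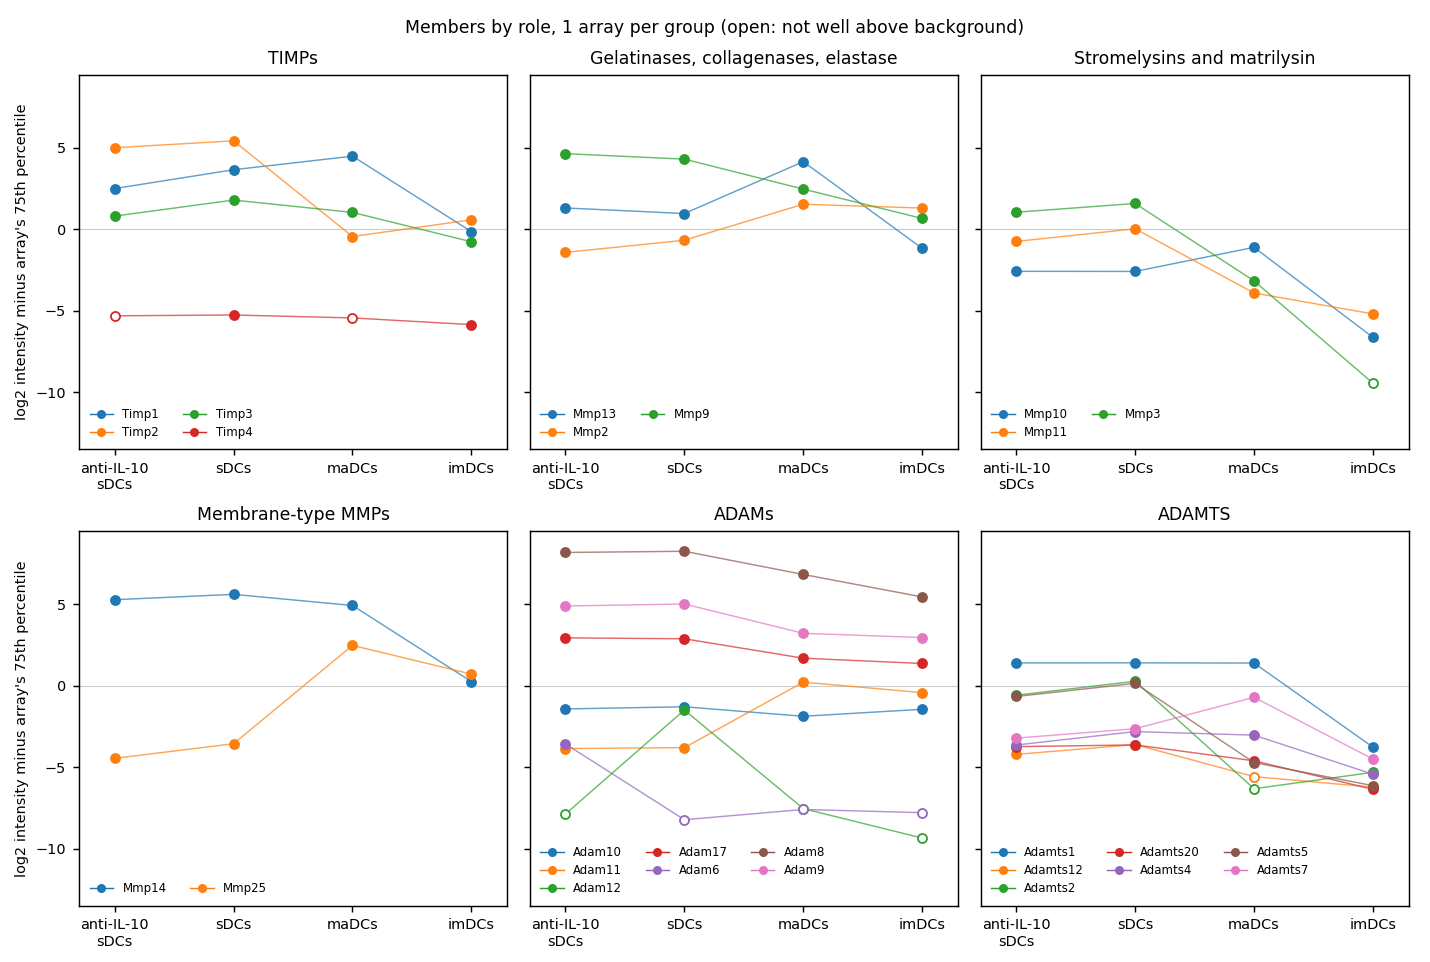
Log2 intensity minus the array's 75th percentile (vertical axis) on the antibody-treated sDC, sDC, maDC and imDC arrays, for the members with a difference of at least 4-fold in any comparison and those described whatever they showed. Each line joins the 4 values of 1 gene, 1 array per group, and open points were not well above background. Timp2 lies at 5.01 and 5.43 on the stroma-formed arrays and near 0 on the others, whereas Mmp25 runs the opposite way.

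A group of 8 MMP members lies side by side on chromosome 9, over 415 kb of the mm9 build between the probes of Mmp13 and Mmp7. Promoter windows of GRCm38.p6 from RefSeq, 250 bases before to 50 after a gene's start, were searched for the letters TGACTCA and TGAGTCA, which are each other's reverse strand and form the classical binding sequence of the AP-1 transcription factors. In the cluster 6 of 8 genes had a window with a match (75%), namely Mmp13, Mmp12, Mmp3, Mmp10, Mmp7 and Mmp1a, against 1607 of 27025 genes in the whole table (5.95%) and 3 of the 33 members outside the cluster that the table holds (9.09%). The matches began 35 bases before the start in Mmp13, 44 in Mmp12, 46 in Mmp3, 63 in both Mmp10 and Mmp7, and 73 in Mmp1a. A match describes the letters only and is neither a shown binding site nor a cause of any level.

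The 150 bases before the start are printed for the 5 genes of the cluster that have both a match and a level on these arrays, to show where the motif lies. These genes and windows were picked for holding a match, and how usual such placing is was not tested. Mmp8, a neighbour with a level but no match, is printed last. All lie on the plus strand of GRCm38.p6, at chr9:7272364-7272513 (Mmp13), chr9:7347224-7347373 (Mmp12), chr9:7445672-7445821 (Mmp3), chr9:7502192-7502341 (Mmp10), chr9:7691940-7692089 (Mmp7) and chr9:7558279-7558428 (Mmp8). Capitals mark the motif.
Mmp13: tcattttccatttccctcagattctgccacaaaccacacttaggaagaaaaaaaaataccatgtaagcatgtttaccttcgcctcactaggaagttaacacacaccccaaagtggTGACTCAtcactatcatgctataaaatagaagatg
Mmp12: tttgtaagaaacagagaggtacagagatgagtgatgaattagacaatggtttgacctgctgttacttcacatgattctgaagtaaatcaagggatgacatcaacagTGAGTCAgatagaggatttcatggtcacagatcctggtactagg
Mmp3: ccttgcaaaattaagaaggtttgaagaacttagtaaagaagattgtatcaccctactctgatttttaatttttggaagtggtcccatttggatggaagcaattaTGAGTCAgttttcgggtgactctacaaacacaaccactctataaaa
Mmp10: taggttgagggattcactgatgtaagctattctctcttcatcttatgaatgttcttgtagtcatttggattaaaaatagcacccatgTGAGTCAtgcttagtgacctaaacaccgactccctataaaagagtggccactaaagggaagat
Mmp7: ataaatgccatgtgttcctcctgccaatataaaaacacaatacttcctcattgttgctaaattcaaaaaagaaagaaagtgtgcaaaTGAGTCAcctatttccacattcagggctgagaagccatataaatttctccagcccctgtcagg
Mmp8: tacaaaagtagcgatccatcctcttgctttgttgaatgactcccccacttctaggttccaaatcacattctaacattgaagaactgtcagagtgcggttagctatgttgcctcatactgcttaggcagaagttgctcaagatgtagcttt

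The genes behind these promoters had unlike patterns across the arrays. Mmp3 (stromelysin 1, which cuts proteoglycans and activates other MMPs) was at 1.05 in antibody-treated sDCs, 1.59 in sDCs and -3.16 in maDCs, and was not well above background at -9.44 in imDCs (probe at mm9 chr9:7455751-7455810). It was 26.9-fold higher in sDCs than in maDCs, at least 445-fold higher in sDCs than in imDCs and at least 16.5-fold higher in maDCs than in imDCs. The stroma-formed arrays were thus highest and the imDC array lowest. Under normexp the bounds against imDCs were smaller, at 6.33 for sDCs and 2.11 for maDCs on the log2 scale.

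Mmp13, the main interstitial collagenase of the mouse, had its peak elsewhere, at 1.31 in antibody-treated sDCs, 0.97 in sDCs, 4.15 in maDCs and -1.16 in imDCs (probe at mm9 chr9:7282762-7282821). Its level in maDCs was 39.8-fold that in imDCs, and in sDCs it was 9.06-fold lower than in maDCs. Mmp10 (stromelysin 2) was likewise highest in maDCs, with -2.58 in each stroma-formed culture, -1.10 in maDCs and -6.63 in imDCs. That is a difference of 5.52 for maDCs and 4.04 for sDCs against imDCs. With normexp these were 3.43 and 2.23.

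Mmp12, the macrophage elastase, varied less. It was at 3.12 in antibody-treated sDCs, 2.74 in sDCs, 3.99 in maDCs and 2.84 in imDCs, so that sDCs and imDCs differed by -0.10. Mmp7 (matrilysin) was at -2.31 in antibody-treated sDCs, -1.92 in sDCs, -2.14 in maDCs and -3.10 in imDCs. It was 2.27-fold higher in sDCs than in imDCs, which fell under 2-fold with quantile normalization, the 50th percentile and the authors' deposited values. The last measured neighbour, Mmp8 (neutrophil collagenase), was at 4.53 in antibody-treated sDCs, 4.17 in sDCs, 2.66 in maDCs and 3.12 in imDCs. Mmp1a and Mmp20 (enamelysin, known from tooth enamel) were not well above background on any of the 4 arrays.

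**Figure D3:**
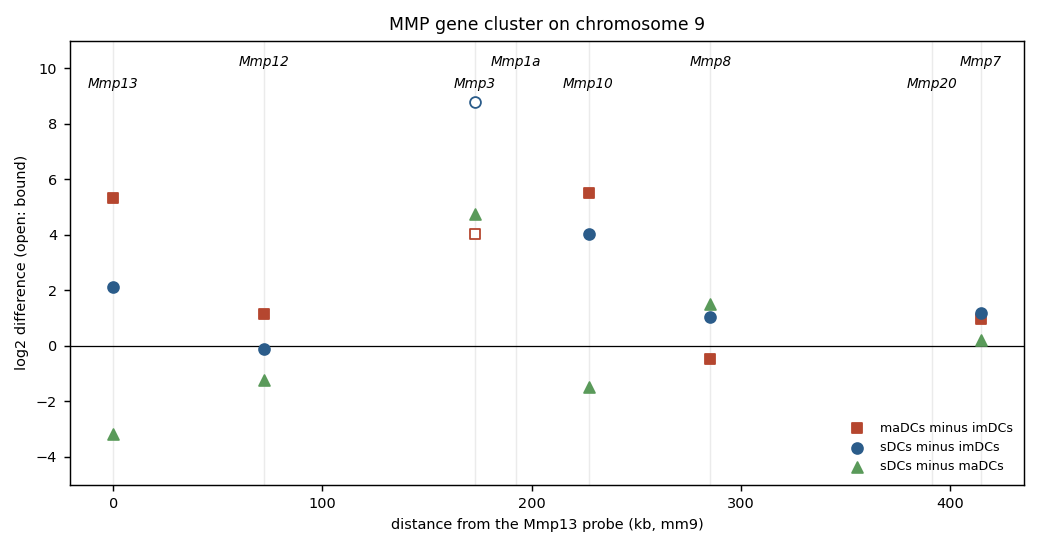
Log2 difference (vertical axis) for each gene of the chromosome 9 cluster against the distance of its probe from the Mmp13 probe in kb of mm9 (horizontal axis), for maDCs minus imDCs (red squares), sDCs minus imDCs (blue circles) and sDCs minus maDCs (green triangles). Open symbols are bounds, and Mmp1a and Mmp20 have no points. Neighbours within 415 kb differ in sign for sDCs minus maDCs, from -3.18 for Mmp13 to 4.75 for Mmp3.

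The gelatinases, which cut denatured collagen and basement membrane, had opposite orders between sDCs and the other cells. Mmp9 was at 4.64 in antibody-treated sDCs, 4.31 in sDCs, 2.47 in maDCs and 0.67 in imDCs. Its probe was spotted 10 times on each array with an SD between spots of 0.044 to 0.058, which says nothing of the spread between cultures. In sDCs it was 12.5-fold higher than in imDCs and 3.58-fold higher than in maDCs. Mmp2, by contrast, was lower in the stroma-formed cultures, at -1.41 in antibody-treated sDCs and -0.67 in sDCs, against 1.54 in maDCs and 1.31 in imDCs (probe at mm9 chr8:95376840-95376899). That is 4.63-fold lower in sDCs than in maDCs, while stromal markers averaged 2.96 in sDCs and -2.26 in maDCs. Of those 12 markers, 11 were at least 2-fold higher in sDCs than in maDCs and 1, Thy1, was lower (-1.92). Mmp2 is known as a product of fibroblasts, and the part of stromal cells in its levels was not tested.

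Mmp8 and Mmp9 are stored in neutrophil granules, and Mmp25 is known as a protease of the leukocyte surface. Neutrophil markers (10 of the 12 listed were on the array, and all 10 were well above background on every array) averaged 1.10 in antibody-treated sDCs, 0.07 in sDCs, 1.78 in maDCs and 6.33 in imDCs. All 10 were at least 2-fold lower in sDCs than in imDCs, while Mmp9 and Mmp8 were 12.5-fold and 2.07-fold higher there, the last of these under 2-fold with quantile normalization and with the 50th percentile. Mmp25 was at -4.46 in antibody-treated sDCs, -3.56 in sDCs, 2.47 in maDCs and 0.71 in imDCs (probe at mm9 chr17:23767090-23767149). It was 65.6-fold lower in sDCs than in maDCs, the largest difference in that direction among the members. The log2 difference was -6.04, and -5.33 with normexp. The part of neutrophils in the levels of Mmp8, Mmp9 and Mmp25 was not tested.

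Among the remaining membrane-type MMPs, Mmp14, the pericellular collagenase that activates pro-MMP-2, was at 5.27 in antibody-treated sDCs, 5.60 in sDCs, 4.92 in maDCs and 0.25 in imDCs (probe at mm9 chr14:55059969-55060028). It was 40.9-fold higher in sDCs and 25.5-fold higher in maDCs than in imDCs, and another probe gave differences of 4.69 and 4.04. The sDC and maDC arrays differed by 0.68 only. Mmp17 and Mmp24 were within 2-fold between sDCs and maDCs (0.31 and -0.26), Mmp16 was well above background in sDCs alone and Mmp15 on no array. Mmp11 (stromelysin 3), an MMP typical of fibroblasts next to tumours, was at -0.74 in antibody-treated sDCs and 0.03 in sDCs, against -3.90 in maDCs and -5.19 in imDCs, or 15.3-fold higher in sDCs than in maDCs. That log2 difference, 3.94, was 3.20 with normexp. Mmp23 was highest in imDCs, at -2.86 in antibody-treated sDCs, -2.13 in sDCs, -2.50 in maDCs and -0.82 in imDCs.

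Adam8, Adam9, Adam10, Adam12, Adam15, Adam17, Adam19, Adam28 and Adam33 were listed together as sheddases. Of these, 6 of 9 were at least 2-fold higher in sDCs than in imDCs (25.7% of all genes were) and 5 of 9 higher than in maDCs (14.2% of all genes). Both counts include a bound for Adam12, and the first includes Adam33, which was at 0.88 on another probe. Adam19 was lower in sDCs than in maDCs (-1.80). Adam8, a protease of activated leukocytes, reached 8.17 in antibody-treated sDCs and 8.25 in sDCs, against 6.82 in maDCs and 5.44 in imDCs. Adam9 was at 4.89 and 5.01 on the stroma-formed arrays, against 3.21 in maDCs and 2.95 in imDCs. Adam15 was 2.98-fold higher in sDCs than in maDCs, and 1.38 on the log2 scale on another probe. The pair of principal sheddases behaved unlike each other. Adam17, which releases TNF and EGF receptor ligands, was at 2.93 in antibody-treated sDCs, 2.88 in sDCs, 1.68 in maDCs and 1.36 in imDCs, 2.29-fold higher in sDCs than in maDCs and 1.14 on the log2 scale on another probe. Adam10, which cuts Notch and CD23, was at -1.43 in antibody-treated sDCs, -1.30 in sDCs, -1.88 in maDCs and -1.45 in imDCs, within 2-fold in each comparison.

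Adam11 and Adam23 encode ADAMs that lack a working protease and act in adhesion, mostly in the nervous system. Adam11 was at -3.86 in antibody-treated sDCs and -3.80 in sDCs, against 0.22 in maDCs and -0.43 in imDCs, which makes it 16.2-fold lower in sDCs than in maDCs. The other probes of the gene gave -2.58 and -2.57 for that difference. Adam23 was at -2.66 in antibody-treated sDCs, -1.89 in sDCs, -0.48 in maDCs and 0.05 in imDCs. Adam22, of the same kind, was not well above background on any array. The 18 ADAMs of the reproductive tract gave little signal, with 4 to 9 of them well above background on an array. In sDCs against maDCs 5 had a value and none was past 2-fold. For Adam3 that value is only a lower bound (0.34), which does not show a difference under 2-fold. Against imDCs, 2 of 5 were at least 2-fold higher in sDCs (25.7% of all genes were) and 2 of 5 in maDCs (21.9% of all genes). These were Adam21 and Adam30 each time, and both fell under 2-fold with the authors' deposited values.

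Adam12, made by mesenchymal cells and muscle precursors, was at -7.88 in antibody-treated sDCs, -1.49 in sDCs, -7.54 in maDCs and -9.35 in imDCs, and well above background in sDCs alone (probe at mm9 chr7:141078571-141078630). The bounds were at least 14.6-fold higher in sDCs than in maDCs and at least 52.5-fold higher than in imDCs. The second Adam12 probe was fainter and gave smaller steps, at -6.01 in antibody-treated sDCs, -5.21 in sDCs, -7.58 in maDCs and -9.27 in imDCs. On that probe the bound between sDCs and maDCs was 0.14, so the size of the difference rests on 1 probe. With normexp the bounds of the brighter probe were 2.49 against maDCs and 3.37 against imDCs.

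Of the ADAMTS proteoglycanases, 5 of 5 with a value were at least 2-fold higher in maDCs than in imDCs (21.9% of all genes were), and 5 of 6 in sDCs (25.7% of all genes). In maDCs, Adamts5 and Adamts20 fell under 2-fold with normexp, and Adamts5 also with quantile normalization and the authors' deposited values. In sDCs, Adamts15, a bound, did so with normexp and the authors' deposited values. Adamts1 was at 1.39 in antibody-treated sDCs, 1.40 in sDCs, 1.39 in maDCs and -3.77 in imDCs. On a dimmer probe the LPS-exposed arrays differed more, by 0.18 between antibody-treated sDCs and sDCs and by -0.08 between sDCs and maDCs. Its level was 36.0-fold higher in sDCs and 35.7-fold higher in maDCs than in imDCs, and the dimmer probe gave bounds of 3.65 and 3.72. Adamts5, the main aggrecanase of mouse cartilage, was at -0.66 in antibody-treated sDCs and 0.14 in sDCs, against -4.72 in maDCs and -6.14 in imDCs, 29.0-fold higher in sDCs than in maDCs. A fainter probe of Adamts5 was well above background on 1 array, sDCs. The log2 difference of 4.86 between sDCs and maDCs was 3.66 with normexp and 3.37 as a mean over probes. Adamts4 was at -3.64 in antibody-treated sDCs, -2.82 in sDCs, -3.04 in maDCs and -5.43 in imDCs. Adamts20 was at -3.74 in antibody-treated sDCs, -3.64 in sDCs, -4.61 in maDCs and -6.36 in imDCs. Both were lowest in imDCs, and Adamts9 was highest in maDCs (-1.79, against -3.66 in imDCs).

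Adamts2, which removes the amino-terminal propeptide of fibrillar procollagens, was at -0.59 in antibody-treated sDCs and 0.27 in sDCs, against -6.32 in maDCs and -5.32 in imDCs (probe at mm9 chr11:50617472-50617531). It was at least 49.4-fold higher in sDCs than in maDCs, where it was not well above background, and 48.0-fold higher than in imDCs. The log2 differences, 5.63 and 5.58, were 4.17 and 4.39 with normexp, and 3.07 and 3.43 as a mean over the gene's probes. Adamts14, an enzyme of the same group, was within 2-fold in each comparison, at -2.17 in antibody-treated sDCs, -1.92 in sDCs, -1.96 in maDCs and -2.67 in imDCs, and Adamts3 was not well above background on any array. Adamts12 was at -4.22 in antibody-treated sDCs, -3.61 in sDCs, -5.58 in maDCs (not well above background) and -6.23 in imDCs. It was 6.13-fold higher in sDCs than in imDCs, and its bound of 3.35-fold against maDCs fell under 2-fold with normexp and with the mean over probes. Adamts7, which cuts the cartilage protein COMP, was highest in maDCs, at -3.22 in antibody-treated sDCs, -2.64 in sDCs, -0.71 in maDCs and -4.50 in imDCs.

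**Figure D4:**
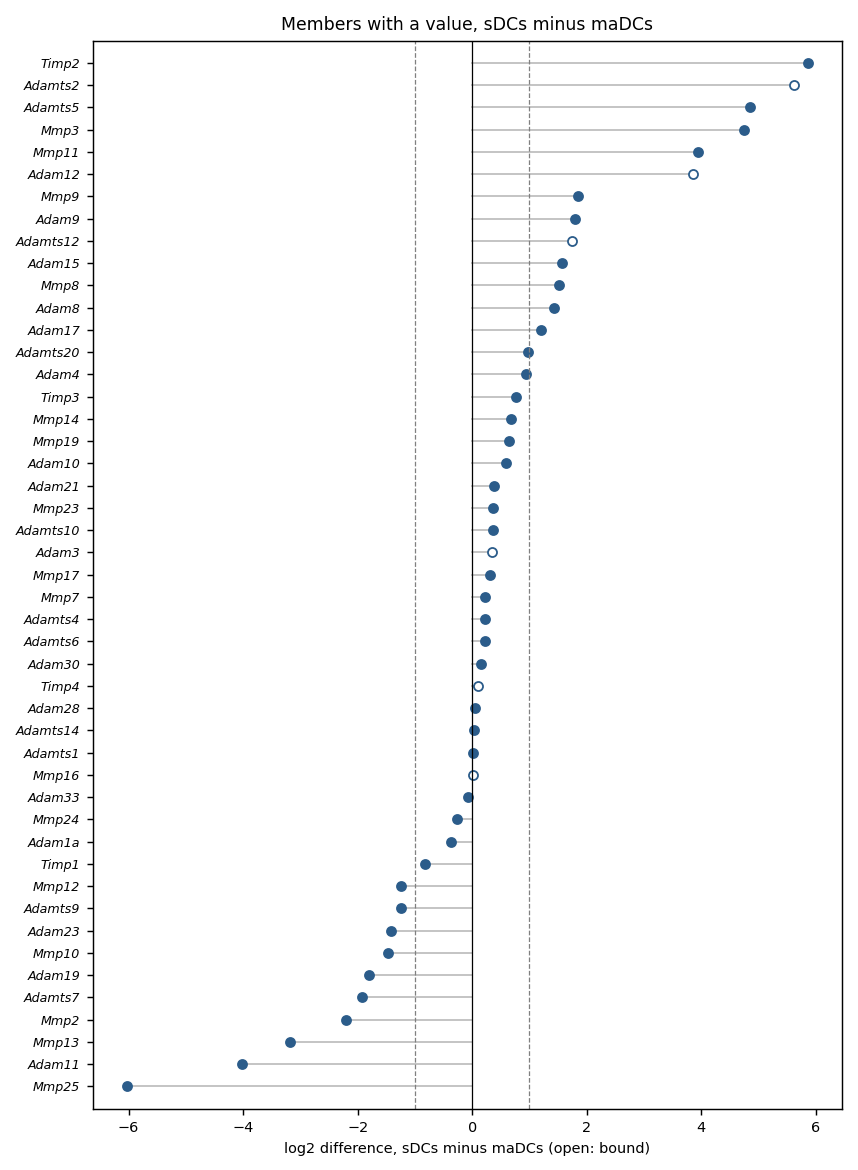
Log2 difference between sDCs and maDCs (horizontal axis) for the 47 members with a value, ordered by size, 1 array per group. Open points are bounds and dashed lines mark 2-fold. On the right, 13 members lie past the upper line, with Timp2 at 5.87 the highest of those measured on both arrays, and on the left 10 past the lower line, with Mmp25 at -6.04.

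The comparison of antibody-treated sDCs with sDCs asked how the members stood when IL-10 was neutralized during formation. Past 2-fold were 3 of 49 members, 1 higher (2.04%, against 0.868% of all genes) and 2 lower (4.08%, against 1.22%). Timp1 was 2.23-fold lower in antibody-treated sDCs (2.50, against 3.66 in sDCs), with a difference of -1.16, and of -0.90 on another probe. Adam12 was at least 18.2-fold lower, but the second probe gave a bound of -0.46. With normexp the brighter probe's bound was -2.57. Adam6 was well above background in antibody-treated sDCs alone, at -3.58, against -8.23 in sDCs, -7.60 in maDCs and -7.79 in imDCs, and at least 5.21-fold higher than in sDCs. This bound of 2.38 was 1.10 with normexp. It has 1 probe (mm9 chr12:114783663-114783722), which may not separate the near-identical copies of this mouse gene.

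Timp3 was just short of 2-fold lower (-0.99), and past it under the authors' deposited values and the 50th percentile. At 1.5-fold, a size chosen after seeing the data, 14 of 49 members were lower in antibody-treated sDCs (28.6%, against 5.35% of all genes) and 2 higher (4.08%, against 2.16%). The 14 were Timp1, Timp3, Mmp2, Mmp11, Mmp23, Mmp25, Adam12, Adam19, Adam23, Adamts2, Adamts4, Adamts5, Adamts9 and Adamts12. The higher ones were Adam6 and Adamts10, the last at 0.96 with 0.23 on another probe. Adamts9, at -0.77, was at 0.11 on another probe, and 10 of the 19 pairs of measured probes had opposite signs in this comparison. Stromal markers differed between the same arrays, with all 12 lower in antibody-treated sDCs, 1 of them past 2-fold, and a median of -0.88. Neutrophil markers ran the other way, with 5 of 10 at least 2-fold higher (median 1.01). Mmp8 and Mmp9 were 0.36 and 0.33 higher, and Mmp25 was at -0.89. The part of these cell type signals in the members' differences was not tested. Mmp14, Adam8, Adam9, Adam15, Adam17 and Adamts1 lay between -0.33 and 0.06 in this comparison.

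**Figure D5:**
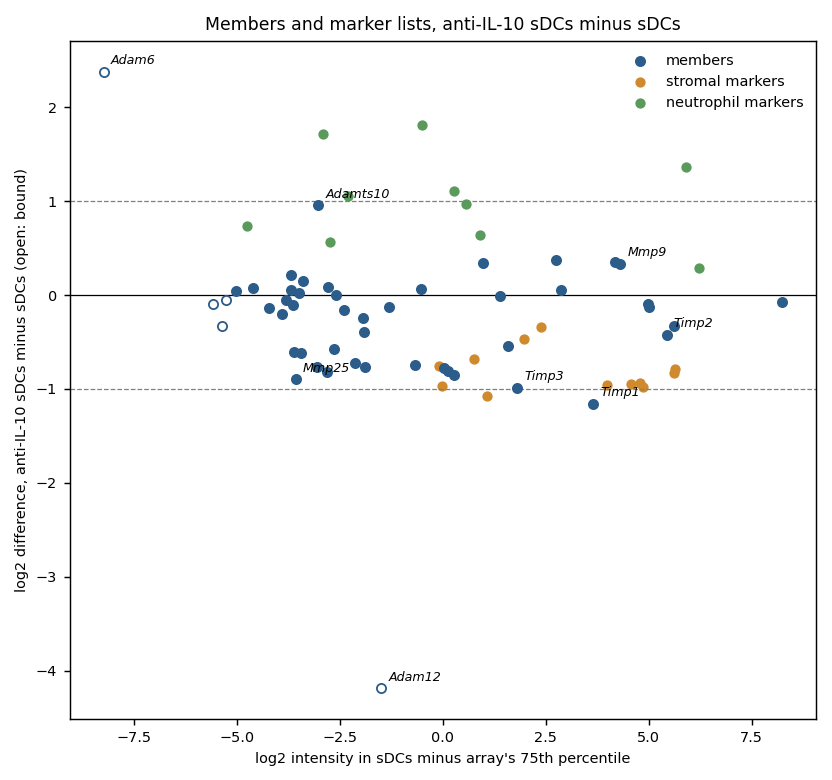
Log2 difference between antibody-treated sDCs and sDCs (vertical axis) against the level in sDCs (log2 intensity minus the array's 75th percentile, horizontal axis) for members (blue), stromal markers (orange) and neutrophil markers (green), 1 array per group. Open points are bounds and dashed lines mark 2-fold. All 12 stromal markers lie below 0 and all 10 neutrophil markers above it, while the measured members reach from -1.16 (Timp1) to 0.96 (Adamts10).

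Genes that act with the members were listed apart. Of 26 activators, plasminogen system genes and other inhibitors on the array, 13 of 22 with a value were at least 2-fold higher in sDCs than in imDCs (25.7% of all genes were) and 3 lower (15.9% of all genes). Pcolce, an enhancer of procollagen processing, was 5.78 higher in sDCs than in maDCs, and the proprotein convertase gene Pcsk5 at least 3.73 higher. Tspan33, a tetraspanin partner of ADAM10, ran the other way at -6.34.

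Among 28 shed substrates of ADAM10 or ADAM17 with a value, 14 were at least 2-fold lower and 7 higher in sDCs than in maDCs. The substrates with the largest differences in any comparison were among the lower ones here. Cx3cl1 (fractalkine) was at -5.86, Nrg1 at -5.64, Il1r2 at -3.68 and Areg at -2.82 in that comparison. The 7 higher ones included, named after their values were seen, Mertk (2.57), Trem2 (1.85), Csf1r (1.75), Tnfrsf1a (1.46), Il6ra (1.25) and Kitl (a bound of 1.17). Of 21 matrix substrates 14 were higher and 2 lower in sDCs than in maDCs, with Col3a1 at 8.60, Col1a1 at 8.25, Dcn at 5.13 and Thbs2 at least 6.85 higher. Col3a1, Col1a1 and Dcn are also among the stromal markers above, and Mertk and Csf1r among the macrophage markers. Their values are thus not separate from those signals, and the part of cell types in the substrates' differences was not tested. As background, 14.2% of all genes were higher and 16.9% lower in that comparison.

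Where a member had a second probe measured on both arrays, its sign could be set against that of the brightest probe. Among pairs in which the brightest probe was past 2-fold, the sign was the same in 10 of 10 for maDCs minus imDCs, 13 of 13 for sDCs minus imDCs, 10 of 10 for sDCs minus maDCs and 1 of 1 for the antibody comparison. The other probe stayed within 2-fold for Adam30 and Mmp24 in maDCs minus imDCs, for Adam33 and Mmp24 in sDCs minus imDCs and for Timp1 in the antibody comparison. Over all pairs, whatever their size, the signs were opposite in 2 of 18 for maDCs minus imDCs, 2 of 17 for sDCs minus imDCs, 1 of 18 for sDCs minus maDCs and 10 of 19 for the antibody comparison. Adamts9 was at 0.62 in sDCs minus imDCs on its brightest probe and at -0.40 and -0.68 on others, and Adam23 at -0.52 and 0.37 in maDCs minus imDCs. The median size of the disagreement between probes was 0.22 to 0.54 log2 units, wider than the spotting error. Only just past 2-fold in sDCs minus imDCs lay Mmp17 at 1.02 and Mmp8 at 1.05.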

How the data were processed

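RNA of 4 cell populations was hybridised to 1 one-colour Agilent mouse array each, per the labels' protocols from 0.5 µg of RNA labelled with Cy3. The authors deposited intensity values that were background-subtracted and detrended by Agilent Feature Extraction. Its version is 10.5.1.1 per the file headers, which place probes in mm9, and 9.1 per the submitters' processing notes. A table of log2 values that the authors deposited correlated with log2 intensity at 0.997 to 1.00 per array. Its columns share 1 distribution (median 6.31 over these probes), genes are not centred, and each column holds 1 sample, so no ratio direction is open.

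From the scanner tables, log2 intensity minus each array's 75th percentile was computed in Python 3.11.15 for 43379 non-control spots per array, leaving out 76 to 148 spots with an outlier mark and averaging spots of 1 of the 41174 probes. A probe counts as well above background on an array if 50% or more of its spots do. Where that holds for 1 of the 2 arrays compared, the difference is a bound: the dim side takes the larger of its own signal and the array's lowest detected signal. Where it holds for neither, there is no value. The comparison set was every gene name that RefSeq (GRCm38.p6) holds as a symbol or as a synonym of 1 gene, 19707 of 27827. All 73 members matched, 71 by symbol and 2 by synonym. Promoters were read from RefSeq for the 41 members listed there. Arrays limit precision by their number, 1 per group. Alternatives were normexp (limma 3.58.1, offset 50), quantile normalization, the authors' log2 values, 2 other filters on dim probes, the mean over probes, outlier spots kept and the 50th percentile. The difference computation was tested on simulated data. Members and lists were chosen with earlier results of these data known. Levels are printed for members past 4-fold in any comparison and for a fixed set (the TIMPs, Mmp2, Mmp9, Mmp14, Adam10, Adam12, Adam17), other members by count or, to complete a role group, with levels chosen after their values were seen, and up to 4 genes of each further list, of which 1 is not reported here. No exon or UTR annotation of mm9 was used here.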

Additional observations from a re-analysis of the deposited data

How the results depend on the processing

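The 40 member differences of at least 4-fold kept their sign and stayed past 2-fold in all 320 values from the 8 alternatives. They were picked for their size, and several alternatives could hardly move them. The other filters and the kept outlier spots dropped no call, and the mean over probes leaves members with 1 probe unchanged. No alternative used a second probe alone, on which Adam12 had bounds of 0.14 (sDCs minus maDCs) and -0.46 (antibody-treated sDCs minus sDCs). No paired analysis was possible because each group holds 1 array. Counts of members past 2-fold moved by over 1.5 times in these cases. For maDCs minus imDCs, 39 members were higher without a filter on dim probes, and 1 (normexp), 5 (quantile normalization), 4 (authors' deposited values) and 5 (50th percentile) were lower, against 2. For antibody-treated sDCs minus sDCs, 3 were higher without the filter, and at 1.5-fold, added after seeing the data, 2 were higher and 14 lower. The cause was not tested beyond what the settings do, which is to admit dim probes or shift an array. Scaling moved the median of all genes in the comparisons with imDCs, which was 0.22 (sDCs) and 0.20 (maDCs), and 0.03 and 0.02 under quantile normalization and -0.18 for both with the 50th percentile. The share of all 2-fold differences towards maDCs over imDCs was then 57.8% and 44.3% (56.4% in the authors' deposited values), against 67.6%, and towards sDCs over imDCs 53.1% and 43.1%, against 61.7%. Members higher in sDCs than in imDCs then numbered 26 and 27, against 31. In maDCs against imDCs the differences of Adam21, Adam30, Adamts5, Mmp11, Timp2, Adamts20, Adam8 or Mmp12 fell under 2-fold in at least 1 of the alternatives. Dim members limit the rest, since 18 had no array well above background.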
